A study of Canis lupus familiaris with 7 samples.

Results

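Nuclear-encoded subunits of respiratory complexes II to V were followed in the left ventricle of dogs on a low-salt diet and of control dogs. A probe set, a short group of probes aimed at 1 transcript, was taken as a member if its only gene symbol in the platform annotation was SDHA to SDHD, CYC1, or a symbol starting with UQCR, COX4 to COX8 or ATP5. The rule found 60 of the array's 42924 probe sets, for 29 of its 15115 named genes. Complex II had 6 probe sets for 4 genes, complex III 23 for 8, complex IV 14 for 7 and complex V 17 for 10. Another 5 probe sets carry such a symbol together with a second one and were not used. Among the subunits not analysed here were COX5A, ATP5F1E and those encoded in mitochondrial DNA. UQCRB, COX6C, COX7C, ATP5PB, ATP5PD, ATP5PF, ATP5ME and ATP5MG were also not analysed.

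The arrays, 1-colour Affymetrix canine expression arrays, were hybridised with left ventricular RNA from male mongrel dogs, all adult. The 4 low-salt samples (numbered 1 to 4) came from dogs fed 0.5% sodium chloride for 2 weeks, and the 3 control samples (numbered 1, 3 and 4) are labelled as control, with no salt content or feeding time recorded. The comparison asks how the dog heart responds to a diet low in salt. The labels do not say that each sample is a separate animal, so the spread behind each p-value is between samples, not necessarily between animals.

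The respiratory chain of the mitochondrial inner membrane carries electrons to oxygen and stores the energy as a proton gradient. Complex II, succinate dehydrogenase, passes electrons from succinate to ubiquinone. Complex III, the cytochrome bc1 complex, passes them on to cytochrome c, and complex IV, cytochrome c oxidase, hands them to oxygen. Complex V, the ATP synthase, lets protons flow back through a rotor and makes ATP. The beating heart draws most of its ATP from this route, and several subunits of complex IV have a separate isoform in heart and skeletal muscle.

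No probe set of complexes II to V passed the test between low salt and control. Of the 60 probe sets 59 were bright enough to be tested, and 0 of the 59 had an adjusted p under 0.05 by limma with Benjamini-Hochberg adjustment, against 0.346% of the 28616 probe sets tested on the array. At an unadjusted p under 0.05, 2 of the 59 were higher in low salt (background 5.27%) and 2 were lower (background 5.78%), 4 in all or 6.78% against 11.0% of all tested probe sets. The 2 higher ones were for UQCRC2 and ATP5F1C, and the 2 lower ones for COX8A and ATP5F1A. The methods' t-test on the same values passed 0 of the 59 after adjustment, and 0 higher and 3 lower at an unadjusted p under 0.05. In 4 of the 59 all low-salt values lay below all control values (background 5.68%), and in 0 of the 59 all lay above (background 5.13%). These shares were near or below those of the whole array.

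After quantile normalization the differences were small and well bounded for most members. The change is the mean log2(intensity + 16) of low salt less that of control. Its median was -0.02 over the 59 (quartiles -0.12 and 0.06), beside 0.04 over all tested probe sets (quartiles -0.25 and 0.31). With the values as deposited it was -0.02, and with array medians set equal it was 0.41. The median of all tested probe sets was -0.18 and 0.26 under the same scalings. Equal medians turned the sign of SDHA, SDHD, UQCRQ, UQCRH, UQCR11, COX5B, COX7A1 and ATP5MC1 and of 2 COX8A probe sets, among the named changes. The change was smaller than the spread within groups (pooled SD) in 44 of the 59. The 95% interval of the change lay wholly inside 1.5-fold in either direction for 41 of the 59 (69.5%, against 9.47% of all tested probe sets) and inside 2-fold for 51 (86.4%, against 44.9%). These interval counts are for quantile normalized values only, and other scalings gave less precise changes. For ATP5F1C the unadjusted limma p was 0.032 for a change of 0.31 after quantile normalization. It was 0.23 for a change of 0.27 as deposited. The members are bright, and brightness narrows the interval: of the 50 members with a mean level of 9 or more, 40 had an interval inside 1.5-fold, or 80.0%, as did 56.3% of the 3896 tested probe sets of that brightness. By complex the median change was -0.01 for II, -0.03 for III, -0.02 for IV and -0.02 for V. A probe set on a bulk sample cannot tell fewer cells of a type apart from less RNA per cell.

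**Figure D1:**
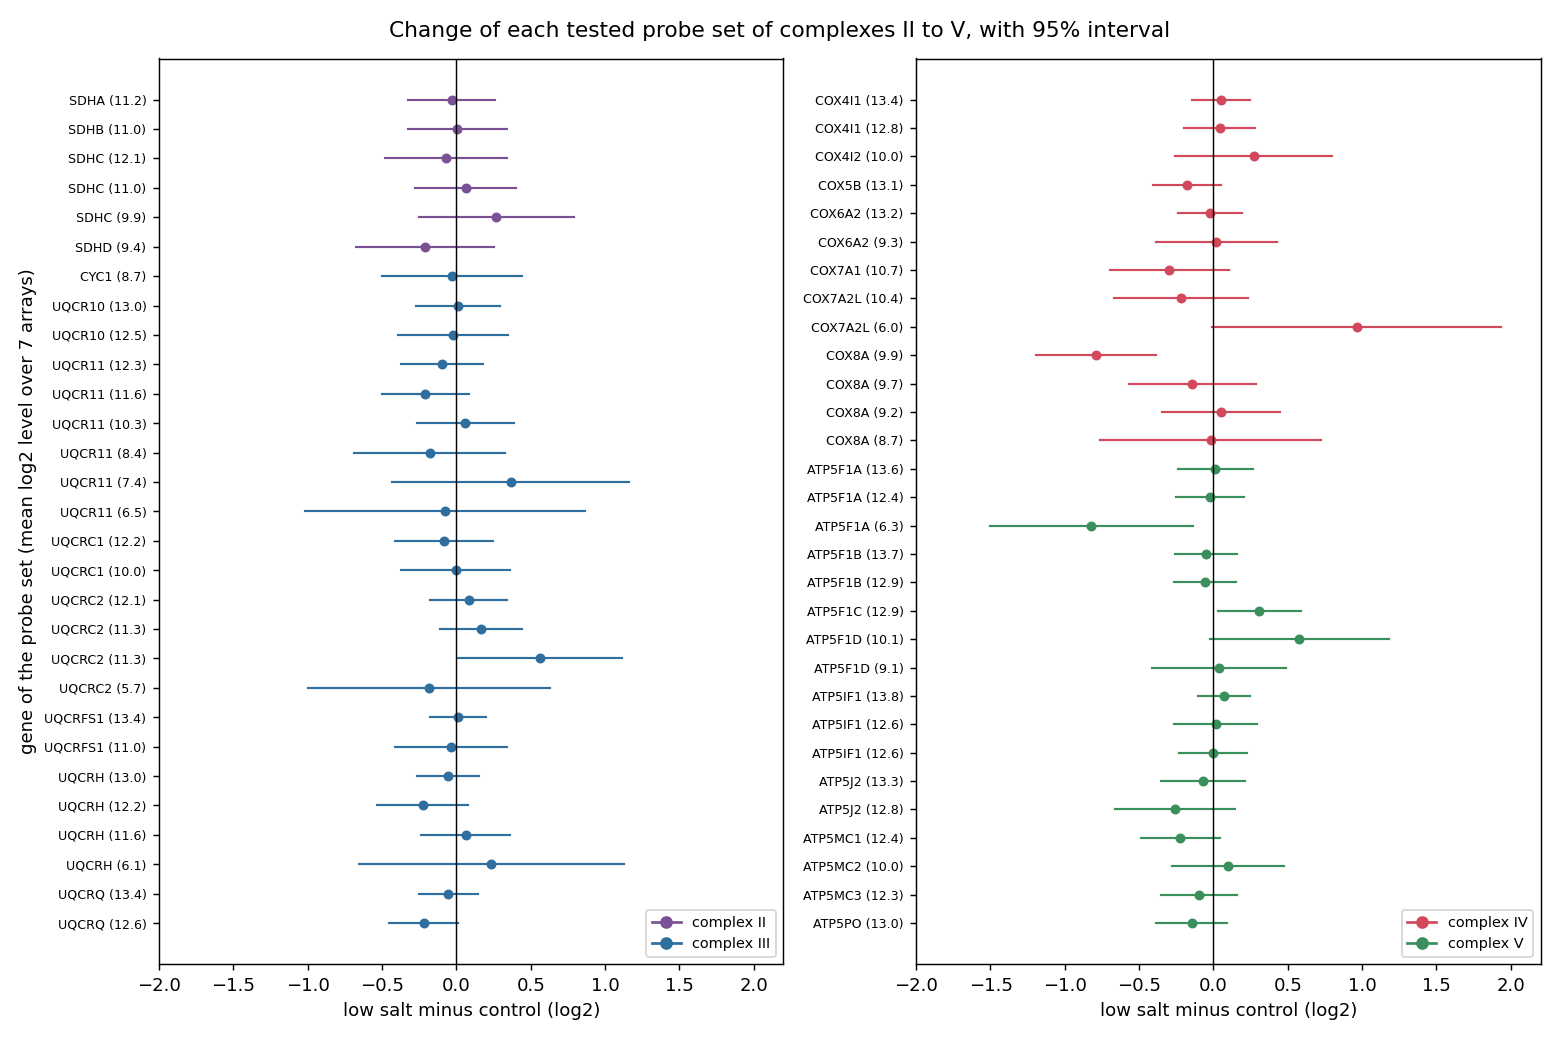
Change of each of the 59 tested probe sets (point, low salt minus control, log2) with its 95% interval from the limma fit (line), grouped by complex and gene; the number beside each gene is the mean log2 level of that probe set over the 7 arrays. The intervals of 4 probe sets, for UQCRC2, COX8A, ATP5F1A and ATP5F1C, do not include 0, and those of dim probe sets are the widest.

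The arrays differed in ways that bear on these values. Low-salt 3 and control 4, which belong to different groups, had the highest median intensities as deposited (44.2 and 51.3, against 19.3 to 39.6 on the others). Over the tested probe sets they correlated at r = 0.95, above the correlation of control 4 with control 1 (r = 0.90) and control 3 (r = 0.92). The ratio of 3' to 5' GAPDH signal, a measure of RNA integrity, was 2.27 ± 0.17 (SD, n = 4) in low salt and 2.58 ± 0.18 (SD, n = 3) in control as deposited, and the groups did not overlap (p = 0.0571 by an exact permutation test, two-sided, which can go no lower with these group sizes). A second GAPDH pair gave 17.7 ± 3.46 in low salt and 29.3 ± 10.0 in control. There too the groups did not overlap, with 22.6 at most in low salt and 22.7 at least in control (p = 0.0571, same permutation test). Actin gave 0.763 ± 0.374 in low salt and 0.957 ± 0.241 in control, and the groups overlapped (p = 0.4, same permutation test). From quantile normalized values the difference of the first pair turned to 0.10, and the part of RNA integrity in the results was not tested. Of 13 cardiomyocyte markers 11 were tested, with a mean level of 12.97 to 13.07 in low-salt samples and 12.97 to 13.06 in control samples. Macrophage markers stood at 7.33 to 7.68 in low salt and 6.95 to 7.39 in control, and 8 of the 9 had a change above 0. Fast skeletal muscle troponin I, TNNI2, fell by 2.38 ± 0.44 (SE, limma adjusted p = 0.0411). The 7 tested skeletal muscle markers stood at 6.64 to 7.32 in low salt and 7.39 to 7.51 in control, with a median change of -0.10. Without TNNI2 the other 6 overlapped, at 7.04 to 7.71 in low salt and 7.37 to 7.40 in control, and their changes ran from -0.82 (MYH4) to 0.28 (MYLPF). Endothelial (8.27 to 8.74 against 8.37 to 8.53), fibroblast (8.83 to 9.39 against 8.81 to 9.56), smooth muscle (6.997 to 7.37 against 6.67 to 7.42), adipocyte (8.02 to 8.65 against 7.82 to 8.55) and erythroid markers (5.09 to 5.68 against 5.13 to 5.85) overlapped between low salt and control. The part of these cell types in the results was not tested.

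In complex II no probe set had an unadjusted p under 0.05, and changes ran from -0.21 to 0.27. SDHA, the flavoprotein that oxidises succinate, had levels of 11.18, 11.28, 11.16 and 11.00 in low-salt samples 1 to 4, against 11.05, 11.28 and 11.24 in control samples 1, 3 and 4. The groups overlapped, and the change was -0.03 ± 0.14 (SE), with a 95% interval from -0.33 to 0.26. SDHB, the iron-sulfur subunit, averaged 11.01 ± 0.15 (SD, n = 4) in low salt and 11.01 ± 0.24 (SD, n = 3) in control, a change of 0.01 ± 0.16 (SE). The membrane anchors SDHC and SDHD bind ubiquinone. The 3 SDHC probe sets differed by -0.07, 0.06 and 0.27 from the brightest to the dimmest, and SDHD by -0.21 ± 0.22 (SE, adjusted p = 0.759). The sign of SDHA, SDHB and SDHD turned in at least 1 of the settings tried.

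In complex III the changes of UQCRFS1, CYC1 and UQCRC1 lay near 0. The Rieske iron-sulfur protein UQCRFS1 averaged 13.39 ± 0.06 (SD, n = 4) in low salt and 13.38 ± 0.06 (SD, n = 3) in control in its brightest probe set, and its other probe set differed by -0.04. Its change of 0.01 ± 0.09 (SE) had a 95% interval from -0.18 to 0.20, that is 0.88-fold to 1.15-fold. Cytochrome c1, CYC1, differed by -0.03 ± 0.22 (SE), and the core protein UQCRC1 by -0.08 and -0.01 in its 2 probe sets.

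The core protein UQCRC2 had 1 of the 2 higher probe sets. Its levels there were 11.43, 11.71, 11.11 and 11.77 in low-salt samples 1 to 4, against 10.98, 11.60 and 10.25 in control samples 1, 3 and 4. Control 3 lay within the low-salt range and control 4 was the lowest of the 7. The change was 0.56 ± 0.26 (SE, unadjusted p = 0.0462, adjusted p = 0.444), and it was 0.22 without control 4 and 0.89 without control 3. The other probe sets of UQCRC2 differed by 0.08, 0.17 and -0.19, and the first of these, the brightest, has an interval from -0.18 to 0.34.

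The small subunits of complex III also lay close together. UQCRQ, which sits beside cytochrome b, had levels of 12.59, 12.59, 12.60 and 12.39 in low-salt samples 1 to 4 and 12.73, 12.89 and 12.68 in control samples 1, 3 and 4 in its second brightest probe set. All low-salt values lay below the controls, by -0.22 ± 0.11 (SE, unadjusted p = 0.0588, adjusted p = 0.474), and the sign turned, to 0.24, with array medians set equal. In the intensities as deposited the groups overlapped, with low-salt 1, 2 and 4 (6788, 6612 and 5586) above control 4 (5499). In the brightest UQCRQ probe set the groups overlapped, and the change was -0.05. UQCRH, the acidic hinge protein that helps cytochrome c1 meet cytochrome c, differed by -0.06 in its brightest probe set and by -0.23, 0.06 and 0.23 in the others. The 6 probe sets of UQCR11 ran from -0.21 to 0.36, and the 2 of UQCR10 were at 0.01 and -0.02.

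Complex IV held the probe set with the smallest p of all members. COX8A, a small nuclear-encoded subunit of cytochrome c oxidase, is read by 4 probe sets. In the brightest, whose ID ends in a plain _at, the intensities as deposited were 774, 668, 871 and 792 in low-salt samples 1 to 4, against 1333, 1469 and 969.5 in control samples 1, 3 and 4. On the normalized scale the levels were 9.54, 9.34, 9.89 and 9.55 in low salt, and 10.49, 10.52 and 10.11 in control. All low-salt values lay below all control values, and the nearest were low-salt 3 and control 4, the arrays that resemble each other. The group means were 9.58 ± 0.23 (SD, n = 4) in low salt and 10.37 ± 0.23 (SD, n = 3) in control. The change was -0.79 ± 0.19 (SE), that is 0.58-fold with a 95% interval from 0.44 to 0.76, with an unadjusted p of 0.000893 and an adjusted p of 0.121. It did not pass over the whole array. The value was -0.67 with the values as deposited and -0.24 (unadjusted p = 0.531) with array medians set equal. Without low-salt 3 and control 4 together, a setting chosen after seeing the data, it was -1.04 (adjusted p = 0.0318).

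The 3 other COX8A probe sets differed by less, and their groups overlapped. Probe sets whose ID ends in _s_at or _x_at hold probes shared with other transcripts in the array maker's naming. The COX8A probe set whose ID differs from the brightest only in the suffix _s_at had levels of 9.14, 9.08, 9.21 and 9.41 in low-salt samples 1 to 4 and 9.14, 9.26 and 9.08 in control samples 1, 3 and 4. The groups overlapped, with a change of 0.05 ± 0.18 (SE) and a 95% interval from -0.34 to 0.45. The interval of the brightest probe set, -1.20 to -0.39, does not meet it. That interval does meet those of the other _s_at probe set, -0.57 to 0.29, and of the _x_at probe set, -0.76 to 0.73. The other _s_at probe set of COX8A had 9.56, 9.35, 10.00 and 9.65 in low salt and 9.55, 10.01 and 9.80 in control, a change of -0.14 ± 0.20 (SE). The _x_at probe set had 8.40, 8.39, 9.50 and 8.31 in low salt and 7.98, 8.64 and 9.39 in control. Here low-salt 3 and control 4 were the highest 2 of the 7 arrays, and the change was -0.02 ± 0.35 (SE). As 1 value a gene, the mean of the 4 probe sets, COX8A differed by -0.23 ± 0.18 (SE, unadjusted p = 0.225).

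**Figure D2:**
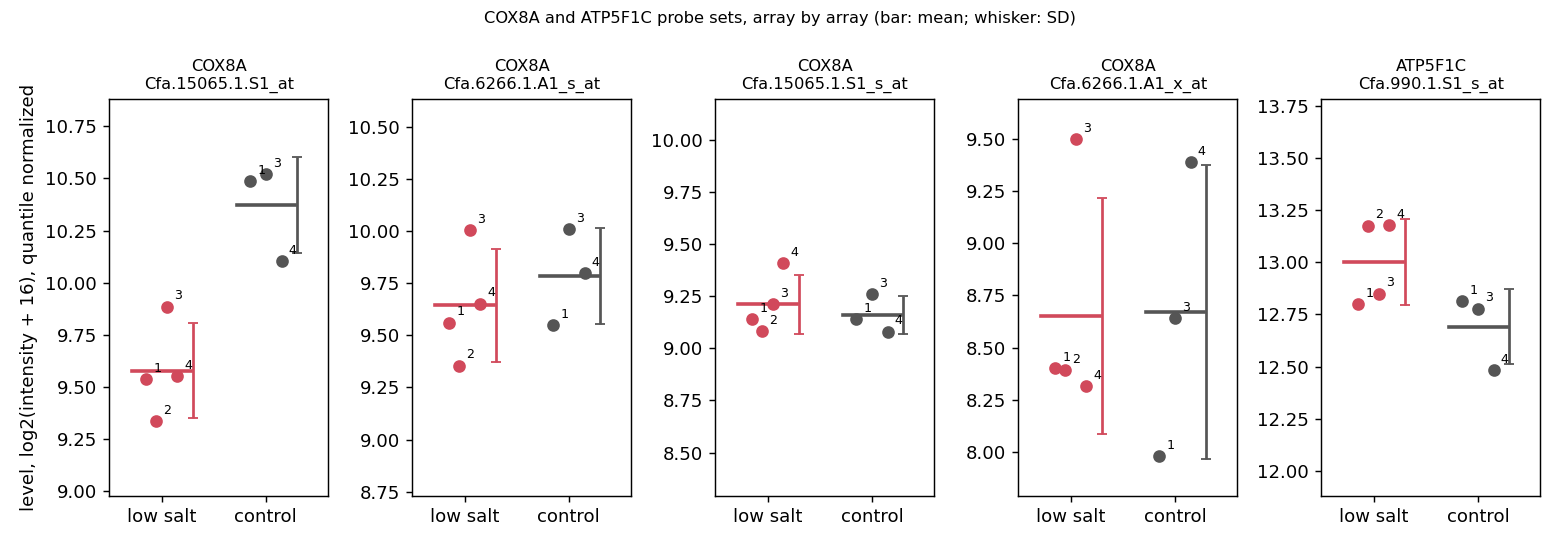
Levels, log2(intensity + 16) after quantile normalization, of the 4 COX8A probe sets and the ATP5F1C probe set on each array (points, numbered by sample), with the group mean (horizontal bar) and SD (whisker), low salt (n = 4) left of control (n = 3); each panel spans the same number of log2 units but has its own level. The groups are apart in the brightest COX8A probe set, with the plain _at, and overlap in the other 4 panels.

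The remaining subunits of complex IV included muscle isoforms. COX6A2, the isoform of heart and skeletal muscle, averaged 13.16 ± 0.11 (SD, n = 4) in low salt and 13.18 ± 0.11 (SD, n = 3) in control in its brightest probe set, and its changes were -0.02 ± 0.10 (SE) and 0.02 ± 0.19 (SE). COX7A1, also a muscle isoform, had levels of 10.38, 10.64, 10.87 and 10.24 in low-salt samples 1 to 4 and 10.53, 11.00 and 10.96 in control samples 1, 3 and 4. The groups overlapped through control 1, and the change was -0.30 ± 0.19 (SE, adjusted p = 0.588). COX4I1, the common isoform of the largest nuclear-encoded subunit, differed by 0.05 ± 0.09 and 0.04 ± 0.11 (SE) in its probe sets. COX4I2, the isoform known from lung and from cells short of oxygen, differed by 0.27 ± 0.25 (SE) in its tested probe set and by -0.04 in the other, the 1 member too dim to be tested. The isoforms COX6A1, COX6B1, COX6B2, COX7A2, COX7B, COX7B2, COX8B and COX8C were not analysed here.

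COX5B, a zinc-binding subunit on the matrix side, had levels of 13.11, 13.07, 13.11 and 12.77 in low-salt samples 1 to 4 and 13.19, 13.20 and 13.19 in control samples 1, 3 and 4. The groups did not overlap, though low-salt 1 and 3 lay close to control 4, and low-salt 4 stood apart at the bottom. The change was -0.18 ± 0.11 (SE, adjusted p = 0.571), and it turned to 0.18 with array medians set equal. In the intensities as deposited the COX5B groups overlapped, with low-salt 1 and 2 (9417 and 9264) above control 4 (7785). COX7A2L, which helps to join complexes III and IV into supercomplexes, gave opposite signs. Its dim probe set differed by 0.96 ± 0.45 (SE, unadjusted p = 0.0522, adjusted p = 0.46), with control 4 at 4.29 and the 6 other arrays between 5.57 and 6.74. The change was 0.42 without control 4, 0.49 with an offset of 64 and 1.64 with an offset of 1. Its bright probe set differed by -0.22 ± 0.21 (SE).

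Complex V had 1 probe set higher and 1 lower at an unadjusted p under 0.05, for ATP5F1C and ATP5F1A. ATP5F1C, the γ subunit that turns inside the head, has 1 probe set with no other symbol, and 1 of the 5 probe sets left out for a second symbol also carries its name. The levels were 12.80, 13.18, 12.85 and 13.18 in low-salt samples 1 to 4, against 12.81, 12.78 and 12.48 in control samples 1, 3 and 4. Low-salt 2, 3 and 4 were higher than every control, low-salt 3 narrowly, low-salt 1 lay between controls 3 and 1, and control 4 was the lowest. The means were 13.00 ± 0.21 (SD, n = 4) in low salt and 12.69 ± 0.18 (SD, n = 3) in control. The change was 0.31 ± 0.13 (SE), 1.24-fold with a 95% interval from 1.02 to 1.502, with an unadjusted p of 0.032 and an adjusted p of 0.402. It was 0.21 to 0.38 with 1 array left out, lowest without control 4 (unadjusted p = 0.154), and 0.70 (unadjusted p = 0.118) with array medians set equal. The unadjusted p was under 0.05 in 8 of 17 other settings, and not among others with the values as deposited or by the methods' t-test.

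The α subunit ATP5F1A and the β subunit ATP5F1B form the catalytic head. The brightest ATP5F1A probe set averaged 13.57 ± 0.18 (SD, n = 4) in low salt and 13.56 ± 0.18 (SD, n = 3) in control, a change of 0.01 ± 0.12 (SE), and the second differed by -0.02 ± 0.11 (SE). Another, dim ATP5F1A probe set had intensities as deposited of 26.1, 32.1, 41.3 and 56.6 in low-salt samples 1 to 4, against 95.9, 100.1 and 116.9 in control samples 1, 3 and 4. All low-salt values lay below the controls there, with a change of -0.82 ± 0.32 (SE, unadjusted p = 0.0216, adjusted p = 0.372). The interval of this change, -1.50 to -0.14, overlaps that of the brightest probe set, -0.24 to 0.26. The 2 ATP5F1B probe sets differed by -0.05 ± 0.10 and -0.06 ± 0.10 (SE). ATP5F1D, the δ subunit of the central stalk, had levels of 9.83, 10.51, 10.00 and 11.24 in low-salt samples 1 to 4 and 10.06, 9.64 and 9.76 in control samples 1, 3 and 4. Low-salt 4 was the highest and low-salt 1 and 3 lay within the control range, and the change was 0.58 ± 0.28 (SE, adjusted p = 0.473), and 0.29 without low-salt 4. The other ATP5F1D probe set differed by 0.04.

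The membrane part and the regulator of complex V were also close to the controls. ATP5MC1, ATP5MC2 and ATP5MC3 each encode the c subunit, the ring through which protons pass. ATP5MC1 had levels of 12.41, 12.41, 12.48 and 12.11 in low-salt samples 1 to 4 and 12.58, 12.72 and 12.42 in control samples 1, 3 and 4, a change of -0.22 ± 0.12 (SE, adjusted p = 0.542). The groups overlapped only through low-salt 3 and control 4. ATP5MC2 differed by 0.10 ± 0.17 (SE) and ATP5MC3 by -0.10 ± 0.12 (SE). ATP5PO, the peripheral stalk protein that holds the head in place, differed by -0.15 ± 0.11 (SE), and ATP5J2, the f subunit of the membrane part, by -0.07 and -0.26. ATP5IF1, the inhibitor that stops the enzyme from running backwards and burning ATP, averaged 13.85 ± 0.02 (SD, n = 4) in low salt and 13.77 ± 0.07 (SD, n = 3) in control. Its change of 0.07 ± 0.08 (SE) had a 95% interval of 0.93-fold to 1.18-fold, and its 2 other probe sets were within 0.02 of 0.

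**Figure D3:**
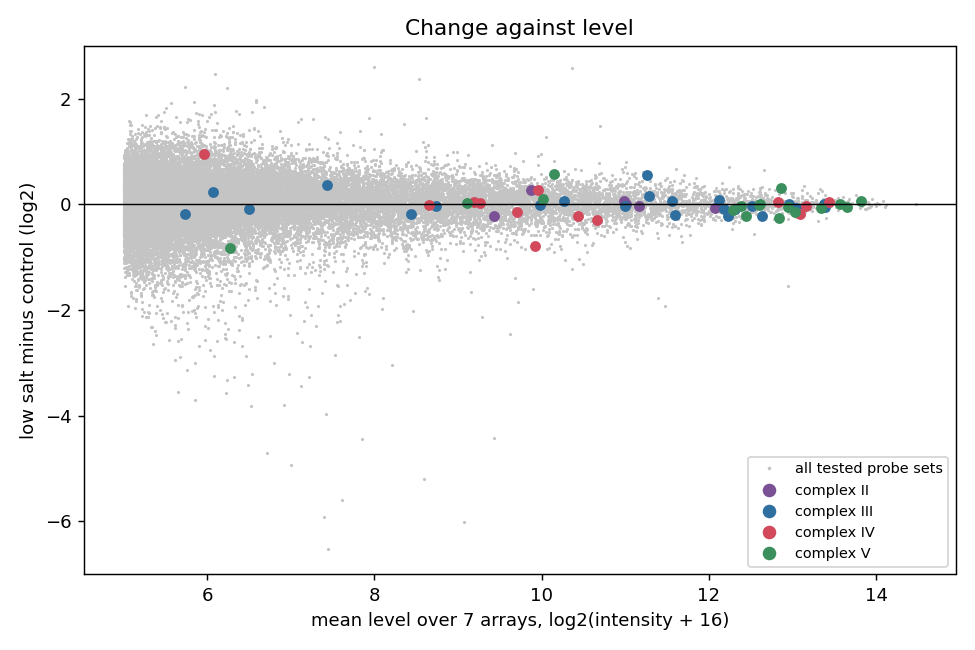
Change (low salt minus control, log2) of each tested probe set against its mean level over the 7 arrays; grey points are all 28616 tested probe sets and coloured points the 59 members by complex. Members at levels of 9 or more lie between -0.79 (COX8A) and 0.58 (ATP5F1D), and the dim ones between -0.82 (ATP5F1A) and 0.96 (COX7A2L).

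Probe sets of 1 gene did not always give the same change. Of the 29 genes 17 had 2 or more tested probe sets. Those of ATP5F1B, COX4I1, UQCR10, COX6A2 and UQCRFS1 lay within 0.05 of each other. The widest gaps were 1.18 for COX7A2L, 0.84 for COX8A, 0.84 for ATP5F1A and 0.75 for UQCRC2. For COX7A2L and ATP5F1A the dimmest probe set had a mean level of 6.27 or less. UQCRC2 had its dimmest at 5.74 (change -0.19), but its highest change, 0.56, was at a level of 11.26. The dimmest of COX8A was at 8.66, and that of ATP5F1D, with a gap of 0.54, at 9.1. Over the 9 members with a level below 9 the SD of the change was 0.48, and over the 50 brighter ones 0.21, beside 0.53 and 0.30 for all tested probe sets in the same ranges. Taking the brightest probe set of each of the 29 genes, the median change was -0.05, and 1 was higher and 1 lower at an unadjusted p under 0.05.

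Array by array, the members as a whole did not separate low salt from control. The median deviation of the 59 from their means over 7 arrays was 0.01, 0.04, -0.01 and -0.09 in low-salt samples 1 to 4, against -0.05, 0.09 and 0.01 in control samples 1, 3 and 4. Low-salt 4 and control 3 were the extremes, and the groups overlapped. Low-salt 4 was the lowest array for 19 of the 59 members (32.2%, against 12.5% of all tested probe sets), and control 3 was the highest for 19 (32.2%, against 11.5%). Complex II was lowest in control 1 and low-salt 3, at -0.17 each, and complex III in low-salt 4, at -0.13. The members' share of the summed intensity as deposited was 2.34%, 2.38%, 2.06% and 2.08% in low-salt samples 1 to 4, against 2.33%, 2.60% and 2.01% in control samples 1, 3 and 4. The lowest share was again found in control 4 and low-salt 3. These 2 arrays were the highest 2 of the 7 in 9 of the 59 members, beside 12.2% of all tested probe sets. They were so in 5 of the 50 members with a level of 9 or more (10.0% of all at that level), and in 4 of the 9 dimmer ones (12.6% of all at that level), for UQCR11 (2 probe sets), UQCRH and COX8A.

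**Figure D4:**
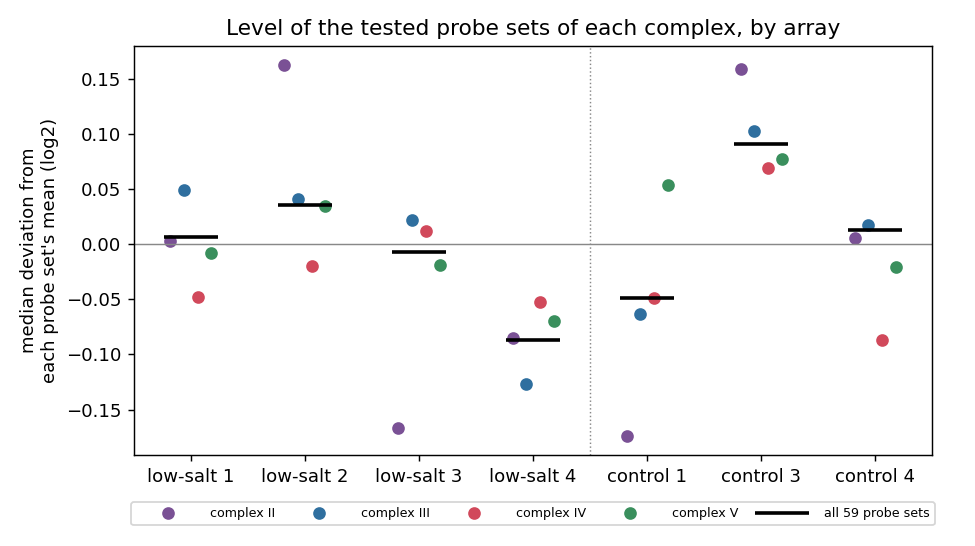
Median deviation of the tested probe sets of each complex from their own means over the 7 arrays (coloured points, log2) and of all 59 together (black bars), with low-salt arrays left of the dotted line and control arrays right of it. The bars run from -0.09 in low-salt 4 to 0.09 in control 3, and the groups overlap.

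Genes that build, feed or regulate these complexes gave 0 calls as well by limma over all probe sets, with each gene read by its brightest tested probe set. Over all tested probe sets 5.27% were higher and 5.78% lower at an unadjusted p under 0.05, the threshold of the counts for each list. Among assembly factors (33 of 47 tested) the median change was 0.00, with 1 gene higher and 0 lower. Over all 60 tested probe sets of these genes, a reading chosen after seeing the data, 3 were higher and 4 lower. HIGD1A, a hypoxia-inducible protein that binds complex IV, had 3 of the lower ones, at -0.50 ± 0.16, -0.89 ± 0.22 and -1.13 ± 0.37 (SE, adjusted p = 0.284, 0.137 and 0.294), while its brightest probe set was at -0.10 ± 0.14 (SE). SDHAF2, which attaches the flavin cofactor to SDHA, had the other, at -1.01 ± 0.38 (SE, adjusted p = 0.363), beside -0.04 in its brighter one. COA1, which helps to assemble complexes I and IV, differed by 0.39 ± 0.16 (SE, adjusted p = 0.4), and its other probe sets by 0.28 and 0.39. ATPAF2, an assembly factor of the ATP synthase head, differed by 0.73 ± 0.35 (SE, adjusted p = 0.466) at a mean level of 5.48. Of 18 genes for ubiquinone synthesis and electron carriers the median was 0.18, with 3 higher and 0 lower, and 3 and 1 over all 35 tested probe sets. COQ5 and COQ2, enzymes of ubiquinone synthesis, differed by 0.98 ± 0.31 and 0.34 ± 0.13 (SE, adjusted p = 0.293 and 0.375), while second probe sets differed by 0.76 and -0.30. Complex I (34 of 38 subunits tested) had a median of 0.00, with 1 higher and 1 lower, and again 1 and 1 over all 62 probe sets. NDUFB11 differed by -0.61 ± 0.17 (SE, adjusted p = 0.202), without overlap, and NDUFAB1, the mitochondrial acyl carrier protein, by 0.29 ± 0.13 (SE). The other tested NDUFAB1 probe sets were at 0.21, 0.25, 0.49 and -0.75.

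Regulators of respiratory genes (13 of 17 tested) had a median of 0.08, with 2 higher and 1 lower at an unadjusted p under 0.05, and 3 and 2 over all 22 probe sets. PPARGC1A, the coactivator that drives mitochondrial biogenesis, averaged 8.21 ± 0.12 (SD, n = 4) in low salt and 8.95 ± 0.49 (SD, n = 3) in control, a change of -0.74 ± 0.25 (SE, adjusted p = 0.301). The transcription factor YY1 differed by 0.32 ± 0.13 (SE, adjusted p = 0.399). Markers of mitochondrial mass and membrane (13 of 17 tested) had a median of 0.08, with 1 higher and 0 lower, and 2 and 3 over all 36 probe sets. The higher one was the import channel TOMM40, at 1.06 ± 0.41 (SE, adjusted p = 0.373) with its other probe sets at 0.95 and -0.03. These TOMM40 probe sets were dim, with mean levels of 5.61, 5.51 and 5.56. The 3 lower probe sets were for MFN2, VDAC1 and MFN1, at -1.56 ± 0.38, -1.49 ± 0.37 and -0.73 ± 0.28 (SE, limma adjusted p = 0.134, 0.141 and 0.375). Their mean levels were 5.37, 5.31 and 7.55, the first 2 of them dim. In the brightest probe sets of MFN2, VDAC1 and MFN1 the changes were 0.32, 0.07 and -0.34. The cristae protein IMMT differed by 0.26 ± 0.12 (SE, adjusted p = 0.47), and its other probe sets by -0.07, 0.14 and 0.13.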

How the data were processed

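The deposited values are probe set intensities on a linear scale, made by the authors with GCOS, the array maker's software, per the submitters' processing notes; neither its version nor the probe summary is given in the sources used here. Total RNA was extracted with Trizol and labelled with biotin, per the labels' protocols. The 7 arrays, 4 low salt and 3 control, were grouped by their titles. Arrays carry no read depth, so their number limits the precision.

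From the deposited intensity, log2(value + 16) was computed and quantile normalized without the 111 control probe sets. The third (33.3%) of the 42924 probe sets with the lowest mean was left out, and 28616 were tested with limma 3.58.1 (lmFit, eBayes with a trend, no covariates) in R 4.3.3, with Benjamini-Hochberg adjustment. The SE is that of the moderated fit. The fit was checked on simulated data. Symbols came from the platform annotation: 29254 probe sets have 1, 439 several and 13231 none.

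The members and gene lists were chosen with earlier results of these data known. Named were every COX8A and ATP5F1C probe set, the 4 genes of smallest p in each complex with their other probe sets, tissue isoforms and c-ring genes, and 2 genes of smallest p in each pathway list. Other members and markers were named after their values were seen. The alternatives were offsets of 1 and 64, values as deposited, equal medians, other filters, array weights, a replicate block, a plain t-test, single arrays left out, probe sets without shared probes and 1 value a gene.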

Additional observations from a re-analysis of the deposited data

Results flagged for a closer look

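In 4 of the 19 named probe sets 1 of the 4 low-salt values stood apart, with a gap to its neighbour, as a share of the group's range, above Dixon's 95% critical value, which chance exceeds in about 5% of groups. The gap was 0.938 of the range for UQCRQ and 0.89 for COX5B, both with low-salt 4 at the bottom. It was 0.858 for COX7A2L, with low-salt 3 at the bottom, and 0.928 for the COX8A probe set with the suffix _x_at, with low-salt 3 at the top.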

How the results depend on the processing

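Of 323 values of 19 named changes over 17 settings, 297 kept their sign and 26 turned, in 12 of the 19; 2 passed the adjusted p, both for COX8A. With array medians set equal the members' median was 0.41, against 0.26 for all probe sets, and the sign turned for SDHD (0.34), SDHA (0.55), UQCRQ (0.24), UQCRH (0.28), UQCR11 (0.36), COX5B (0.18), COX7A1 (0.27), ATP5MC1 (0.24) and 2 COX8A probe sets, the brighter _s_at (0.41) and the _x_at (0.42). SDHA was at 0.12 as deposited, and SDHB at -0.046 with array weights. From quantile normalized values the GAPDH ratio turned to 0.10. The cause was not tested.

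The count over all probe sets, 99, was 39 with offset 1, 165 as deposited, 27 without filter, 177 with array weights, 4 with the plain t-test and 377 without low-salt 3 and control 4 together, chosen after seeing the data. In the last the brightest COX8A probe set was at -1.04 and SDHB at -0.0059, and the _x_at of COX8A at 0.060. With array weights and in that setting 1 member passed, COX8A, at -0.88 (adjusted p = 0.0429) with weights; adjusted p ran from 0.0318 to 0.767 over all settings. Members higher at an unadjusted p under 0.05 were 2, and 3 with equal medians. They were 1 with offset 1, the stricter filter, no shared probes, 1 value a gene or without both arrays. The count was 0 without filter or with the t-test. Members lower were 2, and 1 with equal medians or 1 value a gene. They were 3 with the t-test or without both arrays, and 4 with array weights.

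With 1 array left out, the count over all probe sets ran from 21 (without control 1 or low-salt 4) to 290 (without control 4), with 24, 26 and 41 without low-salt 1, low-salt 2 and control 3. Members called stayed at 0, members higher ran from 0 (without low-salt 2 or 4) to 4 (without low-salt 3), with 1 without control 4, and members lower from 1 (without low-salt 1 or control 3) to 3. COX8A ran from -0.93 to -0.71, SDHA from -0.101 to 0.019, SDHB from -0.123 to 0.113, the dimmer _s_at of COX8A from -0.014 to 0.101 and its _x_at from -0.369 to 0.345.

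Same-numbered samples deviated from their group means with correlations of 0.07, -0.26 and -0.18 for numbers 1, 3 and 4. Control 4 correlated best with low-salt 3 (0.43). So few correlations cannot settle whether the numbers mark pairs. With the replicate block 27 probe sets passed, 0 members, with 0 higher and 1 lower at an unadjusted p under 0.05, SDHB was at -0.034, and the _x_at of COX8A at 0.068. Dim signal limits what the members and the listed genes below a level of 9 can show.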
